A study of Mus musculus with 3 samples.

Results

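The 35 genes described here encode structural and motor parts of the mouse sperm tail. They were taken by symbol from a list of flagellum genes. The rule itself uses no measured value, but the list was drawn up with earlier results of these data known. Of the 55450 genes in the tables, 33 members matched by current symbol, and Dnai1 and Dnai2 matched by the older symbols Dnaic1 and Dnaic2. By role they are 11 dynein arm genes, 5 tektins, 5 fibrous sheath genes, 4 outer dense fibre genes, 4 central pair and radial spoke genes, 5 Cfap genes of the axoneme, and Smcp of the mitochondrial sheath. All 35 had unique molecular identifiers (UMIs, each marking 1 captured transcript) in the data.

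The study used droplet single-cell RNA sequencing with 3′ chemistry on mouse testes emptied of sperm by busulfan, a DNA-alkylating agent toxic to dividing germ cells. All 3 groups received busulfan, and each is 1 library. The PBS group was then injected with phosphate-buffered saline. The EXO group was injected with exosomes, which are small vesicles that cells secrete, taken from wild-type mouse blood. The dEXO group was injected with blood exosomes whose donor mice had a disturbed gut microbiota. Strain, age, time after injection and the number of animals behind each library are not stated in the labels. The extraction text of the labels speaks of aorta while the tissue label is testis, and Leydig, Sertoli and germ cell markers were all detected at high levels. With 1 library in each group no test between groups was possible: every interval is a 95% counting interval, and differences between animals or preparations cannot be told apart from differences between treatments.

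The sperm tail is built around the axoneme, a ring of doublet microtubules with a central pair, bent by dynein motors and steadied by radial spokes. Around it lie outer dense fibres, a sheath of mitochondria in the midpiece and a fibrous sheath in the principal piece. In the mouse testis, axonemal genes are known to be transcribed from meiosis onwards, and the accessory structures are added while spermatids elongate.

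The libraries held 97253862 UMIs in PBS, 91787154 in EXO and 96655663 in dEXO, and 5267, 9860 and 9119 cells were used. Germ cells were clustered without the 35 members and placed in stages by markers that include none of them. Stage names below stand for such marker-defined, "like" classes. Late spermatocytes numbered 80 in PBS, 272 in EXO and 523 in dEXO, round spermatids 44, 213 and 397, and elongating spermatids 9, 19 and 52. The late spermatocyte markers summed to between 14239.5 and 15252 CPM (UMIs of a gene or list per 1000000 UMIs of the stage) in that stage, and the round spermatid markers to between 6576 and 6920.4 in theirs. The PBS late spermatocytes stand apart: 2 of the 80 cells held 50% of their UMIs, and their median depth was 849.5 UMIs against 4075.5 in EXO and 5799 in dEXO. Deep cells weighed heavily in the other libraries too. There 12 of 272 EXO and 31 of 523 dEXO late spermatocytes held 50% of the UMIs. For round spermatids it was 28 of 213 in EXO and 47 of 397 in dEXO. Each pair of libraries shared 19 cell barcodes, and none was in all 3.

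Promoters that hold the letters of an X-box, the motif that RFX factors of ciliary genes are known to bind, are shown first, since it ties 4 members of 3 different structures by sequence. RefSeq promoters on GRCm38.p6 were matched for 31 members, with 38 start sites, and Odf1, Cfap65, Dnah3 and Rsph1 had no entry. The letters GTTNCC, then any 3 bases, then GNAAC, searched on both strands, were found in 4 of the 38 member promoters (10.5%) and in 264 of 32851 promoters of all genes of the same length (0.804%). The sequences run from 150 bases before the start to 20 bases after it on the gene's strand, and capitals mark the motif.
Spag16 (central pair; chr1:69826820-69826989, plus strand): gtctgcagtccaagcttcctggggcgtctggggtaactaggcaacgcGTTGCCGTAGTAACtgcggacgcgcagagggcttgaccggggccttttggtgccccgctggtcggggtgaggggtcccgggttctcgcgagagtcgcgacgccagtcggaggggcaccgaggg
Hydin (central pair; chr8:110266827-110266996, plus strand): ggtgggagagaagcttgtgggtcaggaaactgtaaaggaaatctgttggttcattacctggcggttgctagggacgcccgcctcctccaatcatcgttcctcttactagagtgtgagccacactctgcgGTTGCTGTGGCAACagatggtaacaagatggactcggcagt
Cfap44 (axoneme; chr16:44394649-44394818, plus strand): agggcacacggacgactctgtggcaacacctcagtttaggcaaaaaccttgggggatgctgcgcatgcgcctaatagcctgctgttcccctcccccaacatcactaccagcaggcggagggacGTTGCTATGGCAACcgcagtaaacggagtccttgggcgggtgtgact
Tekt4 (tektin; chr17:25471440-25471609, plus strand): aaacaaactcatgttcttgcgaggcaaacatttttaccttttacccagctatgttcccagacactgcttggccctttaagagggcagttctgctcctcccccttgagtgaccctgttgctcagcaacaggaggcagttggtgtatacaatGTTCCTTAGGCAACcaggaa
The motif lies upstream in 3 of them, from base -103 to -90 in Spag16, -21 to -8 in Hydin and -27 to -14 in Cfap44, and from base 0 to 13 in Tekt4, where 0 is the first transcribed base. It reads on the gene's strand in Spag16 and on the other strand in the other 3. The shorter letters GTTGCC, which overlap the X-box, were in the promoters of 11 members, in 31.6% of member promoters against 12.5% of all. The MYB letters AACTGNC were in 8 members, in 26.3% of member promoters against 12.8%. The cyclic AMP response element TGACGTCA was in Dnah6 alone, in 2.63% of member promoters against 1.79%, and its half-site TGACG, which overlaps it, in 18.4% against 20.8%. The TATA letters TATAAA were in Dnah12 alone, in 2.63% against 13.6%. A match is a description of letters and not a bound site.

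The members were low before the late spermatocyte stage. Summed over all 35, they were at 187 CPM in PBS, 274 in EXO and 582 in dEXO early spermatocytes, and at 12323, 13344 and 13439 in late spermatocytes. The dynein sum went from 14.96, 31.0 and 67.5 to 1859.7, 1237 and 1402, and the tektin sum from 10.7, 21.4 and 70.9 to 805, 1891 and 1657. Every library thus had both sums many times higher in late spermatocytes. The PBS values rest on 46 early and 80 late cells. Among single members, in dEXO, Rsph1 went from 56.1 to 3072 CPM, Dnah8 from 20.7 to 659 and Ropn1l from 98.0 to 4272. This is a description of stages within each library, since the stages were drawn from the same cells.

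**Figure D1:**
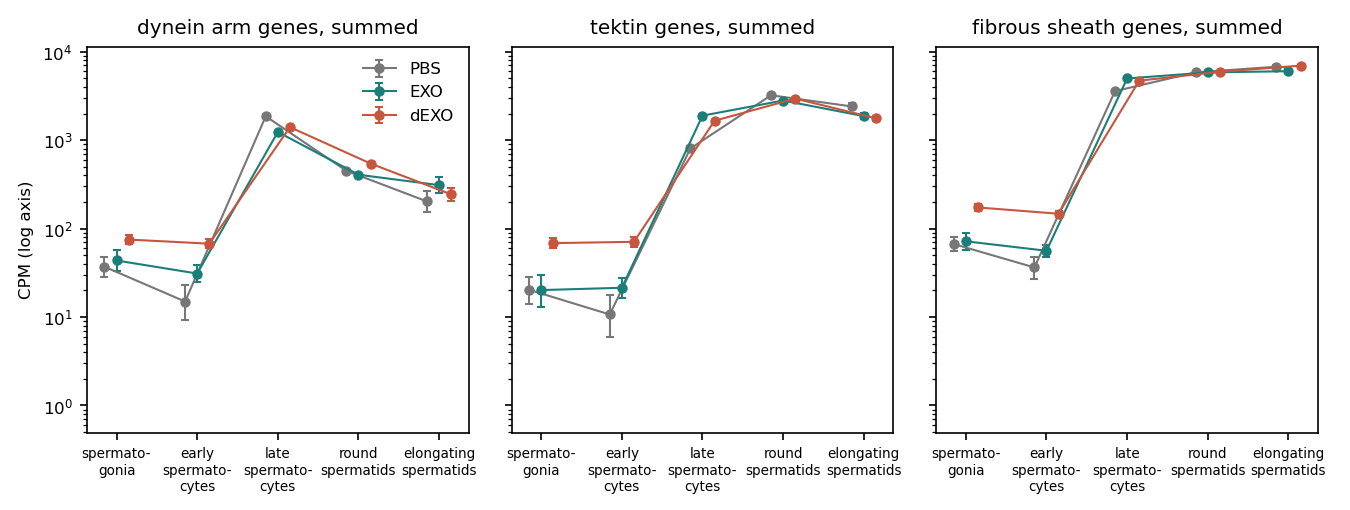
Summed CPM (log axis) of 11 dynein arm, 5 tektin and 5 fibrous sheath genes in 5 germ stages of the PBS, EXO and dEXO libraries, with 95% counting intervals. Clusters of shallow cells are left out. All 3 sums climb at late spermatocytes, after which the dynein sum declines in each library while the tektin and fibrous sheath sums go on to their round spermatid level.

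As a sum, and with the clusters of shallow cells left out, dynein arm genes were at their highest in late spermatocytes. The sum there was 1859.7 CPM in PBS, 1237 in EXO and 1402 in dEXO. In round spermatids it was 450.1, 406 and 543, and in elongating spermatids 203, 309.8 and 243. Shallow round spermatids, described below, are not in these sums. The dynein sum of these shallow cells lay above the late spermatocyte sum in EXO and in dEXO. Among them Dnah3 alone was at 579 CPM in EXO and 696 in dEXO, above the round spermatid sums of those libraries. Dnah8 was at 288 in EXO and 482 in dEXO in the same shallow cells. With the shallow cells left out, the log2 ratio of the sum in round spermatids to late spermatocytes was -1.61 in EXO and -1.37 in dEXO. This ratio was below 0 under each alternative run. Dnah8, a heavy chain of the outer arm found in the testis, gave the largest part of the late sum, with 53.7% of it in PBS, 44.6% of it in EXO and 47.0% of it in dEXO.

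The inner arm heavy chain Dnah3 went the other way. Its level was 2.06 CPM in PBS, 8.01 in EXO and 12.6 in dEXO late spermatocytes, and 99.8, 78.6 and 106 in round spermatids. Every library had it higher in spermatids, while Dnah2, another inner arm heavy chain, stood at 85.6, 63.7 and 61.8 in late spermatocytes and at 4.21, 4.82 and 7.34 in round spermatids. Among the other heavy chains, Dnah17 of the outer arm was at 207, 134 and 141 in late and 34.7, 38.2 and 50.5 in round spermatids. Dnah1, which is known to cause malformed tails when lost, was at 88.7, 75.3 and 83.6 and then at 39.8, 37.4 and 45.4. Dnah6, Dnah10 and Dnah12 were lower in round spermatids than in late spermatocytes in each library, Dnah10 by the least, from 22.7, 25.7 and 34.9 to 21.1, 17.5 and 25.3. The intermediate chains differed from each other in which library was highest in late spermatocytes. Dnai1 was at 110.4, 70.6 and 75.2 in PBS, EXO and dEXO late spermatocytes, and Dnai2 at 36.1, 74.7 and 95.6. Dnah7a has near-identical paralogs, Dnah7b and Dnah7c, and its UMIs may include theirs or be lost to them, so its values are uncertain.

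The tektins, filament proteins that run along the doublet microtubules, reached their highest sum in round spermatids. The sum was 805 CPM in PBS, 1891 in EXO and 1657 in dEXO late spermatocytes, and 3216, 2804 and 2949.99 in round spermatids. The log2 ratio of the stages was 0.57 in EXO and 0.83 in dEXO. Tekt2 was at 166, 454 and 364 in late spermatocytes and at 1170.0, 985 and 1035 in round spermatids. Tekt1 was at 434, 699 and 667 in late spermatocytes and at 934, 847 and 871 in round spermatids, so its 2-fold step was seen in PBS only. Tekt3 went from 88.7, 266 and 221 to 279, 265 and 275, and Tekt4 from 101, 457 and 387 to 819, 689.7 and 754. Tekt4 was higher in round spermatids in every library, and Tekt3 stayed level in EXO. Tekt5 stayed low in both, from 13.2 to 16.9 over the 6 values, and stood at 239 in PBS, 187 in EXO and 164 in dEXO elongating spermatids. That late rise sets Tekt5 apart from the other 4 tektins, whose elongating levels lay below their round spermatid levels in all 3 libraries.

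Fibrous sheath genes held 2 patterns. Ropn1l, a rhophilin-associated protein of the sheath and the radial spokes, was near its full level in late spermatocytes, at 3248 CPM in PBS, 4592 in EXO and 4272 in dEXO. In round spermatids it was at 4321, 4577 and 4424. It gave 74.0% to 78.6% of the round spermatid sum, so the sum mostly follows this gene. Akap4, the main structural anchoring protein of the sheath, was at 10.3, 14.1 and 20.3 in late spermatocytes, 242, 182 and 216 in round spermatids, and 549.9, 407 and 606 in elongating spermatids. Akap3, its partner in assembly, was at 12.4, 40.6 and 54.8 in late and at 262, 192 and 247 in round spermatids. Ropn1, the paralog of Ropn1l, went from 26.8, 60.3 and 55.0 in late spermatocytes to 748, 614 and 694 in round and 1686, 1329 and 1652 in elongating spermatids. Both Akap genes and Ropn1 thus climbed stage by stage in each library. Fsip2, a large sheath protein, changed little, with 284, 272 and 298 in late and 265, 261 and 346 in round spermatids.

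Of the outer dense fibre genes, Odf1, Odf2 and Odf3 were higher at each later stage in every library, and Odf4 was not. Odf1, a small heat shock-like fibre protein, was at 7.22, 29.9 and 46.3 in late spermatocytes of PBS, EXO and dEXO, 258, 215 and 276 in round spermatids and 387, 503 and 449 in elongating spermatids. Odf3 was at 12.4, 9.15 and 8.28 in late, 373, 282 and 297 in round and 593, 590.5 and 589 in elongating spermatids. Odf2, a fibre protein that is also a centrosomal appendage protein, was already at 746, 1029 and 1028 in late spermatocytes, stood at 1294, 1144 and 1212 in round spermatids and reached 1964, 1655 and 1771 in elongating spermatids. Odf4 was at 107, 190.1 and 154 in late, 134, 154 and 144 in round and 116, 93.6 and 88.8 in elongating spermatids. Smcp, the cysteine-rich protein of the mitochondrial capsule, climbed with the first 3. It was at 41.3, 79.9 and 95.2 in late, 1158, 792 and 1108 in round, and 2666, 1552 and 2683 in elongating spermatids.

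Central pair, spoke and other axonemal genes were split between early and lasting patterns. Rsph1, a radial spoke head protein, fell from 3902, 2770.3 and 3072 in late spermatocytes to 918, 1051 and 1139 in round and 239, 174 and 236 in elongating spermatids. Spag17, a central pair protein, fell by less from late to round, with 442, 354 and 463 and then 336, 285 and 389.96. Spag16, its central pair partner, was at 131, 177 and 146 in late and 130.0, 141 and 131 in round spermatids. Hydin, also of the central pair, was at 76.3, 53.4 and 67.1 in late and at 38.7, 36.5 and 47.4 in round spermatids. Cfap65 fell from 198, 149.7 and 161 to 40.8, 39.0 and 55.5, while Cfap69 went from 118, 108 and 135 to 172, 144 and 186. Both Cfap genes are known to be needed for a normal sperm tail, and their stage levels moved in opposite directions in all 3 libraries. In the finer clusters given below, both of them and Cfap44 peaked in cluster 12 of EXO and dEXO. Cfap43 fell from 124, 118 and 133 to 72.6, 68.7 and 87.0 and Cfap70 from 125, 105 and 104 to 48.8, 46.1 and 52.1, while Cfap44 rose from 47.4, 64.1 and 67.4 to 64.5, 72.4 and 77.4.

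Counted at 2-fold, the step from late spermatocytes to round spermatids split the members in shares close to those of all genes. Higher were 11 of 35 members in PBS, with 44 round spermatids, against 32.4% of all genes, 8 in EXO against 25.0% and 8 in dEXO against 22.9%. Dnah3, Tekt2, Akap3, Akap4, Ropn1, Odf1, Odf3 and Smcp were the 8 found in every library. Lower were 12 members in PBS against 29.0%, 11 in EXO against 27.5% and 8 in dEXO against 28.9%, and Dnah2, Dnah7a, Dnah8, Dnah12, Dnah17, Dnai2, Rsph1 and Cfap65 were in all 3 counts. From round to elongating spermatids in dEXO, the one library with 50 or more cells in both, 4 of 35 members were higher against 15.7% of all genes, namely Tekt5, Akap4, Ropn1 and Smcp. Lower were 14 members against 31.6%, among them 8 of the 11 dynein arm genes.

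Within the late and round stages, 9 germ clusters gave a finer order. The clusters are named by number and set in the order of their round spermatid markers, which go from 1449.8 CPM in cluster 12 through clusters 10, 4, 11, 14, 3 and 8 to 7617 in cluster 9, with cluster 17 last by its elongating markers (68286). They held 30 to 113 cells each in EXO and 34 to 190 in dEXO, apart from cluster 17 with 19 and 52. The peak cluster of 30 of the 35 members was the same in EXO and dEXO, and 33 of 35 peaked at most 1 place apart.

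Cluster 12 held the peak of 19 members in EXO and 18 in dEXO. These were the dynein heavy chains except Dnah3, Dnai1, the 5 Cfap genes, Hydin, Spag16, Fsip2 and Odf4 in both libraries, with Spag17 peaking there in EXO only. Dnah8 ran from 2059 CPM in cluster 12 to 984, 415, 529 and 57.1 in clusters 10, 4, 11 and 14 of EXO, and from 2231 to 1205, 489.8, 439 and 81.7 in dEXO. Dnah2 fell in the same clusters from 420.0 to 7.14 in EXO and from 393 to 5.02 in dEXO. In both libraries 9 of the 11 dynein arm genes were highest in this late cluster, the lowest in round spermatid markers. Dnai2 peaked in cluster 14 of EXO and 4 of dEXO, and Dnah3 in cluster 17 of EXO and 9 of dEXO. Cluster 12 was led mostly by predicted Gm genes, with no late spermatocyte marker among the first 10. Its late spermatocyte markers summed to 7782 CPM, against 13427 to 15881 in clusters 10, 4, 11 and 14. Early spermatocyte markers summed to 3015 there, against 382 to 2566 in those clusters. The part of this profile in the dynein peak was not tested.

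Rsph1, Ropn1l, Dnai2 and most tektins peaked later, between clusters 10 and 8. Rsph1 was at 1011 in cluster 12, 3212 in cluster 10 and 3932 in cluster 4 of EXO, and at 1146, 3999 and 3696 in dEXO. Dnai2 was at 7.43 in cluster 12 and 94.0 in cluster 14 of EXO, and at 26.1 in cluster 12 and 126 in cluster 4 of dEXO. Tekt1 rose from 123 in cluster 12 to 1010.0 in cluster 14 of EXO and from 148 to 1025 in dEXO. In the same clusters the dynein heavy chains other than Dnah3 were past their peak. A last set peaked in cluster 17 of both libraries, namely Akap3, Akap4, Ropn1, Odf1, Odf2, Odf3, Smcp and Tekt5. Smcp ran from 422 in cluster 3 through 937 and 1239 to 1552 in cluster 17 of EXO, and from 671 through 1038 and 1703 to 2683 in dEXO.

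**Figure D2:**
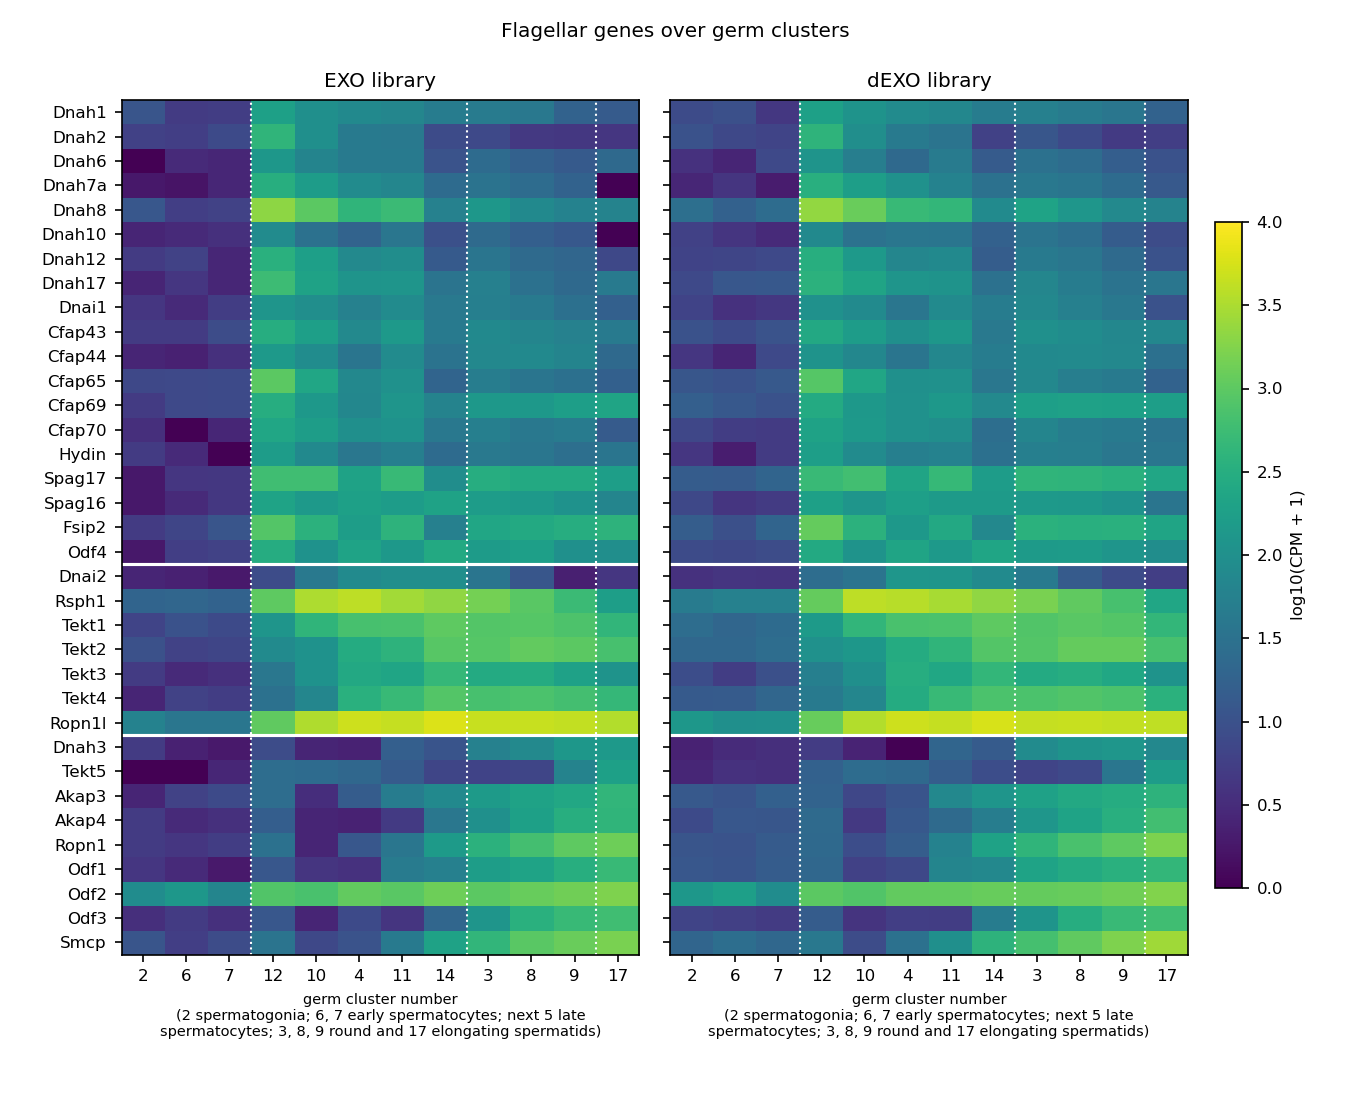
Level of the 35 members, as log10(CPM + 1) by colour, in 12 germ clusters (columns, ordered by stage markers) of the EXO and dEXO libraries; white lines part members grouped by the place of their peak and dotted lines part the stages. Most dynein heavy chains and the Cfap genes are brightest in cluster 12, Rsph1 and most tektins in the middle clusters, and Akap4, Odf1 and Smcp in cluster 17.

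Exon length moved with the cluster 12 levels. Over the members with 50 UMIs in clusters 12 and 10 together, the Spearman correlation of the log2 ratio of cluster 12 to cluster 10 with exon bases was 0.66 in EXO (27 members) and 0.52 in dEXO (29 members). The members share their libraries and cells, so this is a description, and the part of length in the cluster 12 dynein peak was not tested. Members differ in length from 913 bases in Smcp to 26820 in Dnah8.

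Between dEXO and EXO late spermatocytes no member differed by 2-fold: 0 of 35 were higher, where 1.93% of all genes were, and 0 were lower, where 0.191% were. Under some alternatives, listed in the closing section, members did pass 2-fold. With no doublet removed and the cells reclustered, some were lower in dEXO, Smcp among them. The median member was at a log2 ratio of 0.10 and the median gene at 0.03. The dynein sum was 1402 against 1237 CPM, a log2 ratio of 0.18 (0.14 to 0.22), and it stayed above 0 under each alternative run. The tektin sum was lower in dEXO, at -0.19 (-0.22 to -0.16), and so was the fibrous sheath sum, at -0.08 (-0.10 to -0.06). Within cluster 10 alone both of these turned to 0.05. In other single clusters the tektin sum was 297 CPM in EXO and 367 in dEXO in cluster 12, 1593 and 1617 in cluster 4, 1812 and 1893 in cluster 11, and 3226 and 3032 in cluster 14, so dEXO was the lower library in cluster 14 only. Odf1 had a ratio of 0.63 (0.38 to 0.89), Dnai2 0.35 (0.19 to 0.52), Tekt2 -0.32 (-0.39 to -0.25) and Odf4 -0.30 (-0.41 to -0.20). Tekt2 turned above 0 within cluster 10 alone and as a mean of per-cell values. The libraries mix the clusters unequally: cluster 14 held 1680181 of 5244492 late spermatocyte UMIs in EXO and 1395558 of 15702487 in dEXO. Cluster 11 held 1293642 and 9079501. The part of this mix in the ratios of single members was not tested. Ratios above 0 were found for 22 of 35 members, against 54.6% of all genes. The counting intervals of 14 members lay above 0, against 15.8% of all genes, and those of 7 lay below, against 12.0%; these intervals narrow with a gene's UMIs.

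In round spermatids the members leaned towards dEXO by a small amount. None of 35 differed by 2-fold in either direction, where 2.01% of all genes did, yet 31 of 35 had a ratio above 0, against 61.0% of all genes, and 28 had an interval above 0, against 26.6%. Here too the intervals narrow with a gene's UMIs, so the last 2 shares depend on abundance. With cells thinned or as per-cell means, some members did pass 2-fold, as the closing section lists. The median member was at 0.33 and the median gene at 0.08. The dynein sum was 406 CPM in EXO and 543 in dEXO, a log2 ratio of 0.42 (0.37 to 0.47), and it ranged from 0.29 to 0.81 over the alternatives. In single clusters it was 496 in EXO and 681 in dEXO in cluster 3, 359 and 526 in cluster 8, and 321 and 397 in cluster 9, so dEXO was higher in each. The PBS sum, 450.1, lay between the EXO and dEXO sums, from only 44 cells.

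The dynein heavy chains carried that difference together. Dnah8 was at 110.1 CPM in PBS, 95.7 in EXO and 140.2 in dEXO, and the dEXO to EXO ratio was 0.55 (0.46 to 0.64). Dnah10, an inner arm heavy chain, was at 21.1, 17.5 and 25.3, with a ratio of 0.53 (0.32 to 0.76). Dnah2 had a ratio of 0.61 (0.19 to 1.04) from 72 and 146 UMIs, and with each cell thinned to 1000 UMIs it turned to -1.53, so its direction is not settled. All 11 dynein arm genes had a ratio above 0, and only the interval of Dnai2, 0.22 (-0.00 to 0.44), reached 0. PBS was above EXO and below dEXO for Dnah8 and Dnah10 alike.

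Other members moved with the dyneins in round spermatids, and the tektin sum differed by less. Of the tektins, Tekt1, Tekt2 and Tekt4 had dEXO to EXO intervals above 0. Cfap65 was at 40.8, 39.0 and 55.5 in PBS, EXO and dEXO, with a dEXO to EXO ratio of 0.51 (0.36 to 0.65). Spag17 was at 336, 285 and 389.96, a ratio of 0.45 (0.40 to 0.50). Smcp was at 1158, 792 and 1108, a ratio of 0.48 (0.45 to 0.52), and here EXO was the low library while PBS and dEXO were close. The tektin sum had a ratio of 0.07 (0.06 to 0.09) turned to -0.01 relative to the median gene and to -0.12 as a mean of per-cell values, and the fibrous sheath sum had 0.02 (0.01 to 0.04) and turned in 4 alternatives. Ropn1l was at -0.05 (-0.06 to -0.03), Odf4 at -0.10 (-0.18 to -0.02) and Spag16 at -0.11 (-0.19 to -0.02). These 3 were the members with an interval below 0, against 13.6% of all genes. Median depth of these cells was 37774 UMIs in EXO and 21723 in dEXO, and Leydig markers in them summed to 109 and 188 CPM; the part of either in the differences was not tested. The level of members in T or NK cells, which have no flagellum, differed too: Dnah8 was at 24.6 CPM in EXO and 54.5 in dEXO T or NK cells, and Ropn1l, which was not higher in dEXO round spermatids, at 125 and 376. The part of free RNA in the round spermatid differences was not tested.

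**Figure D3:**
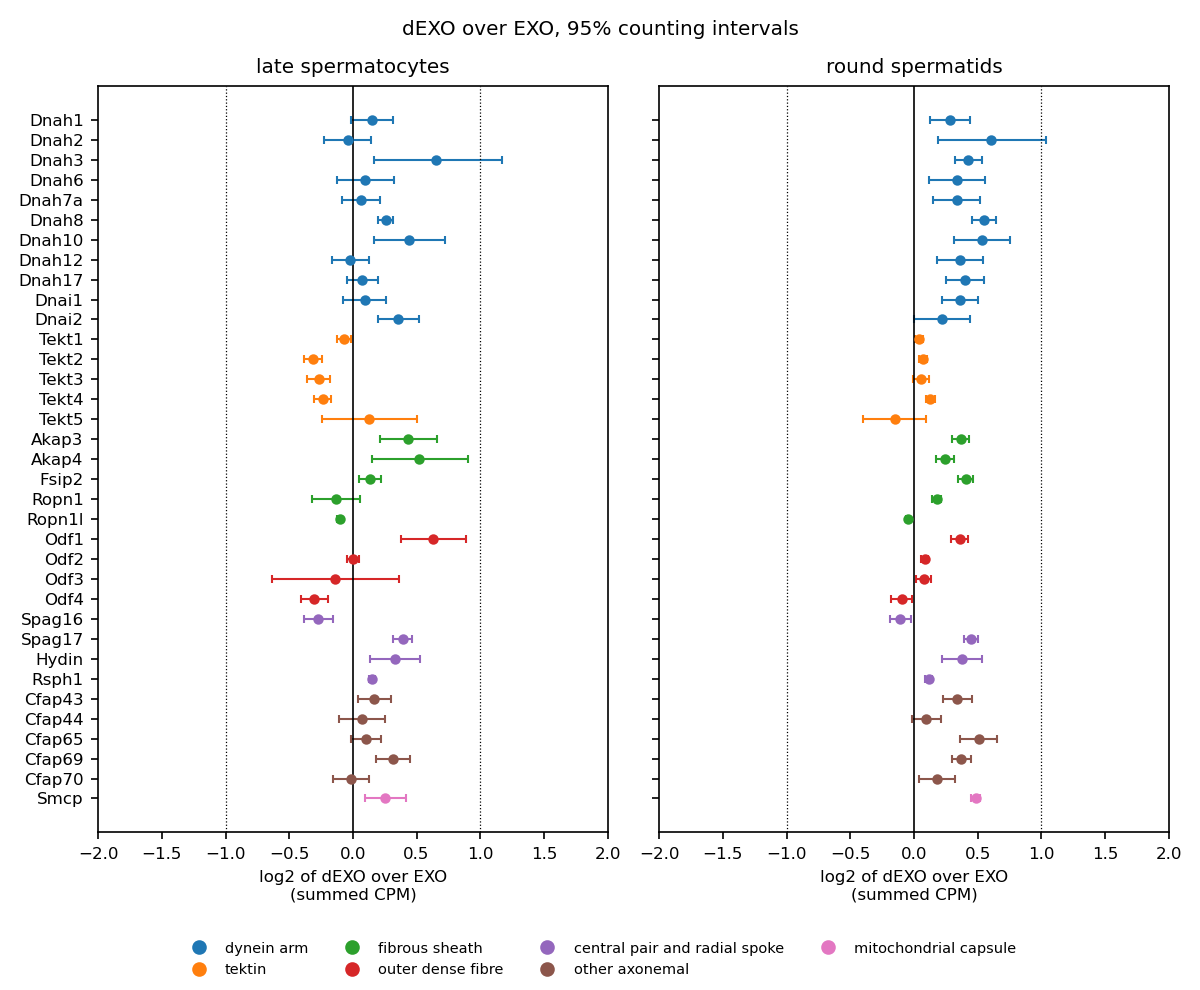
Log2 ratio of dEXO to EXO in summed CPM for each of the 35 members, with 95% counting intervals, in late spermatocytes and in round spermatids; dotted lines mark 2-fold. No member reaches 2-fold in either stage, and the 11 dynein arm genes all lie above 0 in round spermatids.

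Against PBS, the late spermatocyte values of the members differed more, in directions that depended on how the cells were weighted. Higher in EXO were 7 of 34 members against 13.0% of all genes, and none was lower against 9.95%. Higher in dEXO were 9 of 35 members against 15.4%, and none was lower against 9.35%. Tekt2, Tekt3, Tekt4, Akap3, Ropn1, Odf1 and Dnai2 were in both counts, which share the PBS library. Tekt4 was at 101 CPM in PBS, 457 in EXO and 387 in dEXO, a ratio to PBS of 2.18 (1.88 to 2.48) and of 1.94 (1.65 to 2.24). The tektin sums had ratios of 1.23 and 1.04 to PBS and the dynein sums -0.59 and -0.41. With each cell given the same weight, the tektin sum of EXO over PBS turned to -0.80 and the dynein sum to 1.09. Without cells above 100000 UMIs, of which PBS had 4, EXO 15 and dEXO 43 in this stage, the higher members fell to 0 in EXO and 2 in dEXO.

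The PBS values rest on few cells of 1 cluster. Of the 80 cells, 50 were in cluster 14 with a median of 665 UMIs, and 5 were in cluster 10 with a median of 111547, and those 5 held 706327 of the 969507 UMIs. Within cluster 10, Tekt1 was at 395, 411 and 428 CPM in PBS, EXO and dEXO, Tekt2 at 87.8, 110.3 and 129.98, and Dnah8 at 893, 984 and 1205. PBS was the lowest and dEXO the highest library for each of these members. The gaps of Tekt1 and Tekt2 to PBS were smaller there than in the whole stage. In round spermatids, with 44 PBS cells, 0 of 35 members differed from PBS by 2-fold in EXO, where 3.01% of all genes did, and 0 in dEXO, where 3.35% did. That last comparison uses a minimum of 30 cells in place of 50, chosen after seeing the cell numbers.

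Outside late germ cells the members gave low values, and their sum was highest in dEXO. Summed over all 35 members, spermatogonia were at 229 CPM in PBS, 282 in EXO and 605 in dEXO, and early spermatocytes at 187, 274 and 582. T or NK cells, which have no flagellum, were at 258, 638 and 1646. In each of these classes dEXO was the highest library and PBS the lowest. Ropn1l was at 57.9, 58.1 and 130.3 CPM in PBS, EXO and dEXO spermatogonia and at 59.4, 125 and 376 in T or NK cells. Rsph1 was at 5.97, 18.6 and 45.5 in spermatogonia and at 25.9, 62.9 and 221 in T or NK cells. Of the 35 members, 21 in PBS, 28 in EXO and 34 in dEXO were at or below their T or NK level in spermatogonia. Taken per cell the order was another: Ropn1l had 97 UMIs in 53 PBS spermatogonia and 85 in 319 PBS T or NK cells, at median depths of 27618 and 3987 UMIs. The part of free RNA in these values was not tested.

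**Figure D4:**
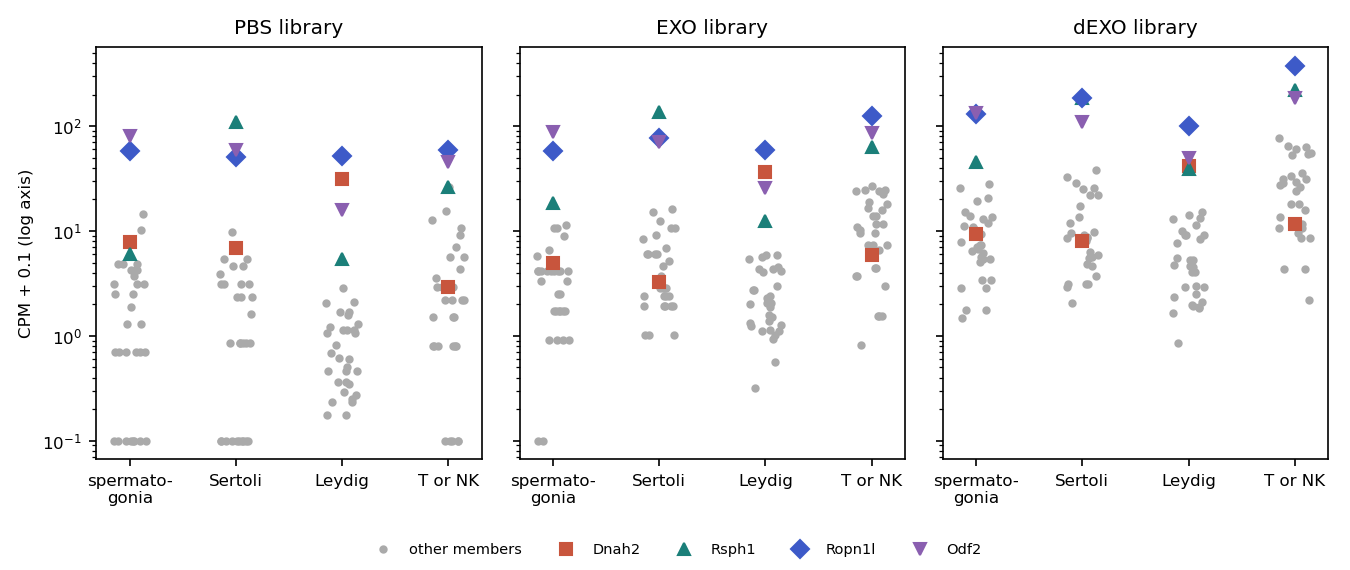
Level of each of the 35 members (points; CPM + 0.1 on a log axis, so points at 0.1 had no UMI) in spermatogonia, Sertoli, Leydig and T or NK cells of the PBS, EXO and dEXO libraries. Dnah2 stands above its T or NK level in the Leydig cells of all 3 libraries, while in dEXO most other members are at their highest in T or NK cells.

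Dnah2 in Leydig cells was an exception. It was at 30.9 CPM in PBS, 36.5 in EXO and 41.7 in dEXO Leydig cells, and at 2.80, 5.78 and 11.5 in T or NK cells. With each cell thinned to 1000 UMIs, a Dnah2 UMI was found in 3.41% of 1527 Leydig cells from PBS, in 3.70% of 2001 from EXO and in 4.76% of 1953 from dEXO. Of the thinned T or NK cells it was 0 of 313 in PBS, which allows a share of cells with a UMI of up to 0.958% (3 of 313), 0.825% of 485 in EXO and 1.504% of 399 in dEXO. Unthinned shares were 55.3%, 44.3% and 43.2% of Leydig cells, at median depths of 33430, 18187 and 14113 UMIs, and 1.25%, 1.39% and 2.65% of T or NK cells, at 3987, 2277.5 and 1998. Dnah8, the more abundant dynein of germ cells, was at 0.970, 4.44 and 15.1 in the same Leydig cells, and Dnah2 had 31.8, 8.22 and 2.76 times its UMIs there, against 0.0857, 0.115 and 0.0938 times in late spermatocytes. Leydig cells thus held Dnah2 in a proportion to Dnah8 that late spermatocytes did not have. Dnah2os, annotated on the other strand of the Dnah2 locus (chr11:69420809-69549110, GRCm38, minus strand), was at 35.6, 45.3 and 45.4 in Leydig cells and at 1.03, 0.381 and 0.255 in late spermatocytes. No source used here says if the counting used strand, so reads of Dnah2 and of Dnah2os in Leydig cells cannot be told apart. In all, 18 of the 35 members overlap an annotated gene of the other strand.

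Rsph1 in Sertoli cells and Odf2 were less clear. Rsph1 was at 109, 136 and 185 CPM in PBS, EXO and dEXO Sertoli cells, against 25.9, 62.9 and 221 in T or NK cells. With cells thinned, 16.9% of 71 PBS Sertoli cells had a UMI of it against 3.51% of T or NK cells, and in EXO it was 12.8% against 6.19%, but in dEXO it was 21.9% against 19.5%. It was thus above the T or NK level in 2 of 3 libraries. Odf2 was at 114, 103 and 134 in early spermatocytes and at 45.5, 86.7 and 186 in T or NK cells, so its level was higher in early spermatocytes of PBS and EXO and lower in those of dEXO. Per cell it was higher in dEXO as well, with 519 UMIs in 263 early spermatocytes against 178 in 415 T or NK cells, at median depths of 11160 and 1998 UMIs.

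A shallow spermatid cluster, number 0, gave the members a further profile. Its cells numbered 16 for PBS, 143 for EXO and 215 for dEXO, with median depths of 2629.5, 1291 and 1314 UMIs, scored highest for round spermatid markers and was led by predicted Gm and Rik genes, with the vomeronasal receptor genes Vmn2r4 and Vmn1r43 among the first 10. Against the other round spermatids 13 of 34 members were 2-fold or more higher in PBS, 14 of 35 in EXO and 14 of 35 in dEXO, where 26.3%, 36.3% and 39.9% of all genes were, so the EXO and dEXO shares are near those of all genes. Lower were 5, 7 and 7 members, against 17.5%, 19.1% and 16.9%. Fsip2 was at 3123, 2842 and 3663 CPM there against 265, 261 and 346 in the other round spermatids. Dnah3 was at 743, 579 and 696 against 99.8, 78.6 and 106. Ropn1l was lower, at 1852, 1376 and 1152 against 4321, 4577 and 4424. The members that were higher were mostly long genes: the Spearman correlation of the log2 ratio with exon bases was 0.75 in PBS (34 members), 0.74 in EXO (35) and 0.81 in dEXO (35), as a description over members that share cells, libraries and depth. Odf2, with 9919 exon bases, and Dnah1, with 13043, were long members that were not 2-fold higher in any library.

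**Figure D5:**
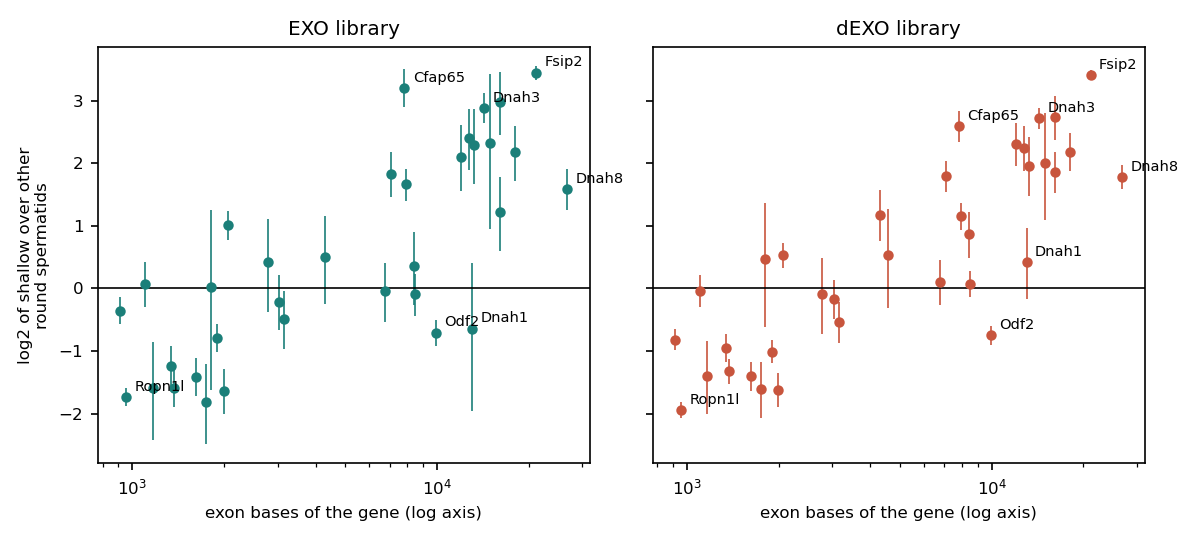
Log2 ratio of the shallow spermatids (cluster 0) to the other round spermatids for each of 35 members against its exon bases (log axis), in EXO and dEXO, with 95% counting intervals. Long members such as Fsip2 lie high and short ones such as Ropn1l lie below 0 in both libraries, with Odf2 and Dnah1 as long members that do not lie high.

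Other flagellar genes, 82 in 9 lists outside the 35, also showed small dEXO to EXO differences. In late spermatocytes 76 had 50 UMIs, 40 of them had a ratio above 0, against 54.6% of all genes, and 1 was 2-fold higher, against 1.93%: Sept4, a septin of the annulus, at 1.10 with an interval from -0.06 to 2.50. In round spermatids 58 of 78 were above 0, against 61.0% of all genes, and none reached 2-fold either way. The 12 other dynein arm and regulator genes had medians of -0.08 in late spermatocytes, with 2 of 9 above 0, and of 0.11 in round spermatids, with 6 of 11 above 0, where all 11 dynein members were above 0; that difference was not tested. The 6 intraflagellar transport genes, which carry parts along the growing axoneme, had a median of 0.27 in late and 0.29 in round spermatids, and 6 of 6 were above 0 in both. In late spermatocytes Ift74 was at 0.44 and Ift81 at 0.42. The 8 transcription factors of the programme had medians of 0.23 and 0.31, with Rfx1, a factor of the X-box family, at 0.64 in late spermatocytes. The 7 arm assembly genes had medians of -0.06 and 0.08, with Spag1 at 0.35 and Pih1d3 at -0.35. The 10 flagellar channel genes had medians of -0.05 and 0.01, with Catsper1 at 0.41 and Catsperb at -0.39.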

How the data were processed

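The files hold deposited UMI counts of 55450 genes per cell barcode in 3 libraries, made with Cell Ranger 5.0.1 per the file headers, with GRCm38 as the build and Seurat as a further tool per the submitters' processing notes. No source used here says if reads were counted by strand or which cells the authors kept. Barcodes with under 500 UMIs, under 300 genes or over 20% mitochondrial UMIs were left out (243 barcodes in PBS, 366 in EXO, 641 in dEXO). Scrublet, run in scanpy 1.11.5, called 4, 2 and 0 doublets and so did not work here, and an alternative removed the 222, 778 and 665 highest scores. Leiden clusters (2000 variable genes without the members, 30 components, resolution 1) were named from 16 marker lists, and no class of cells was taken from the authors.

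Counts were summed per stage and library and given per 1000000 UMIs (CPM). Log2 ratios carry exact conditional 95% intervals, checked on simulated counts. A gene needed 50 UMIs over both sides of a comparison, and comparisons between libraries needed 50 cells of a stage in each, or 30 where stated. Steps within a library had no minimum of cells. A gene at 0 in one library took 3 counts there, and a ratio of 0 where this turned its direction. A count is called at 2-fold. Intervals cover counting error only, and no p-value was computed. All 35 members could be named by rule. Values were planned for those past 2-fold or with most UMIs in their group. The text also gives values of other members, among them some picked for large dEXO to EXO ratios below 2-fold. The other flagellar genes are named by the largest late dEXO to EXO ratios of each list. The members and lists were chosen with earlier results of these data known. The X-box, CRE, MYB and TATA letters were searched in RefSeq promoters from 250 bases before to 50 after each start. Alternatives were thinning, per-cell means, other clusterings, doublet handling, scaling, fold and filters. Cells of unnamed clusters, and the shallow clusters other than 0, were left out of the text.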

Additional observations from a re-analysis of the deposited data

How the results depend on the processing

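No paired analysis was possible because each group is 1 library. Values are log2 ratios of summed CPM, or counts of members at 2-fold. Of the 423 alternative values, 191 stayed within their counting interval or within 1.5 times the count, 198 moved past it and 34 changed direction. The ratios of round spermatids to late spermatocytes of the dynein, tektin and fibrous sheath sums in EXO and dEXO kept their direction in every alternative run, as did the dynein ratio of dEXO to EXO in both stages. The tektin and fibrous sheath ratios of dEXO to EXO, and all sums against PBS in late spermatocytes, changed direction in at least 1. The planned exclusion of shallow spermatid clusters removed 0 clusters. It was applied after cluster 0 had been set apart from the round spermatids, so it does not bear on those cells. No alternative was set up to put the shallow cells back into their stages. A minimum of 1 UMI in place of 50 moved no count of members past 1.5 times. PBS had the fewest cells, with 44 round and 9 elongating spermatids, and its late spermatocytes had the lowest median depth of that stage. The median gene lay at -0.31 in EXO and -0.35 in dEXO for round spermatids over late spermatocytes. The causes of these changes were not tested. The exclusion of deep cells and the values within single clusters (10 for late, 8 for round) were chosen after seeing the data.

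With the highest Scrublet scores removed up to the number expected from loading, EXO over PBS in late spermatocytes gave 0 members higher, 8 members lower, a dynein sum of -0.46, a tektin sum of 0.41 and a fibrous sheath sum of 0.33. After that removal, dEXO over PBS in late spermatocytes gave 0 members higher, 5 members lower, a dynein sum of -0.34, a tektin sum of 0.33 and a fibrous sheath sum of 0.24. After that removal, dEXO over EXO in late spermatocytes gave 2 members higher, a dynein sum of 0.12 and a tektin sum of -0.081. After that removal, dEXO over EXO in round spermatids gave a dynein sum of 0.29 and a fibrous sheath sum of 0.043. After that removal, round spermatids over late spermatocytes in EXO gave a fibrous sheath sum of 0.20. After that removal, round spermatids over late spermatocytes in dEXO gave a dynein sum of -1.43 and a tektin sum of 0.76. With each cell thinned to 1000 UMIs, EXO over PBS in late spermatocytes gave 0 members higher, 1 member lower, a dynein sum of 0.11, a tektin sum of -0.51 and a fibrous sheath sum of -0.17. Thinned, dEXO over PBS in late spermatocytes gave 5 members higher, 1 member lower, a dynein sum of 0.36, a tektin sum of -0.73 and a fibrous sheath sum of -0.23. Thinned, dEXO over EXO in late spermatocytes gave a dynein sum of 0.25. Thinned, dEXO over EXO in round spermatids gave 2 members higher, a dynein sum of 0.73, a tektin sum of 0.012, a fibrous sheath sum of -0.057, Dnah2 -1.53 and Tekt2 -0.11. Thinned, round spermatids over late spermatocytes in EXO gave a dynein sum of -1.91, a tektin sum of 1.09 and a fibrous sheath sum of 0.68. Thinned, round spermatids over late spermatocytes in dEXO gave a dynein sum of -1.43, a tektin sum of 1.32 and a fibrous sheath sum of 0.69. With the mean of per-cell values, EXO over PBS in late spermatocytes gave 13 members higher, 8 members lower, a dynein sum of 1.09, a tektin sum of -0.80 and a fibrous sheath sum of -0.31. As per-cell means, dEXO over PBS in late spermatocytes gave 5 members lower, a dynein sum of 1.23, a tektin sum of -0.99 and a fibrous sheath sum of -0.38. As per-cell means, dEXO over EXO in late spermatocytes gave 2 members higher, 1 member lower, a dynein sum of 0.14, Tekt2 0.039 and Rsph1 -0.18. As per-cell means, dEXO over EXO in round spermatids gave 4 members higher, a dynein sum of 0.81, a tektin sum of -0.12, a fibrous sheath sum of -0.018, Tekt2 -0.13 and Odf2 -0.13. As per-cell means, round spermatids over late spermatocytes in EXO gave a dynein sum of -2.09, a tektin sum of 1.15 and a fibrous sheath sum of 0.71. As per-cell means, round spermatids over late spermatocytes in dEXO gave a dynein sum of -1.42, a tektin sum of 1.22 and a fibrous sheath sum of 0.76. Without cells over 100000 UMIs, EXO over PBS in late spermatocytes gave 0 members higher, 1 member lower, a dynein sum of -0.50, a tektin sum of 0.37 and a fibrous sheath sum of 0.28. Without the deep cells, dEXO over PBS in late spermatocytes gave 2 members higher, 2 members lower, a dynein sum of -0.28, a tektin sum of 0.26 and a fibrous sheath sum of 0.24. Without the deep cells, dEXO over EXO in late spermatocytes gave 1 member higher, a tektin sum of -0.11 and a fibrous sheath sum of -0.048. Without the deep cells, dEXO over EXO in round spermatids gave a dynein sum of 0.61, a tektin sum of 0.033, a fibrous sheath sum of -0.00049 and Odf2 -0.015. Without the deep cells, round spermatids over late spermatocytes in EXO gave a dynein sum of -1.90, a tektin sum of 0.89 and a fibrous sheath sum of 0.40. Without the deep cells, round spermatids over late spermatocytes in dEXO gave a dynein sum of -1.51, a tektin sum of 1.03 and a fibrous sheath sum of 0.44. At 1.5-fold, EXO over PBS in late spermatocytes gave 4 members lower. At that fold, dEXO over PBS in late spermatocytes gave 2 members lower. At that fold, dEXO over EXO in late spermatocytes gave 2 members higher. At that fold, dEXO over EXO in round spermatids gave 1 member higher. At a clustering resolution of 2, EXO over PBS in late spermatocytes gave a dynein sum of -0.50. In those clusters, dEXO over EXO in late spermatocytes gave a tektin sum of -0.14. In those clusters, dEXO over EXO in round spermatids gave a dynein sum of 0.33 and a fibrous sheath sum of 0.041. In those clusters, round spermatids over late spermatocytes in EXO gave a dynein sum of -1.67 and a tektin sum of 0.70. In those clusters, round spermatids over late spermatocytes in dEXO gave a dynein sum of -1.49, a tektin sum of 0.92 and a fibrous sheath sum of 0.36. With no doublet removed and the cells reclustered, EXO over PBS in late spermatocytes gave a dynein sum of -0.39 and a tektin sum of 1.03. With doublets in, dEXO over PBS in late spermatocytes gave 2 members higher, a dynein sum of 0.034, a tektin sum of 0.45 and a fibrous sheath sum of 0.24. With doublets in, dEXO over EXO in late spermatocytes gave 4 members lower, a dynein sum of 0.42, a tektin sum of -0.58, a fibrous sheath sum of -0.19 and Smcp -1.24. With doublets in, round spermatids over late spermatocytes in EXO gave a dynein sum of -1.82, a tektin sum of 0.81 and a fibrous sheath sum of 0.28. With doublets in, round spermatids over late spermatocytes in dEXO gave a dynein sum of -1.85, a tektin sum of 1.45 and a fibrous sheath sum of 0.50. Relative to the median gene, EXO over PBS in late spermatocytes gave a dynein sum of -0.50 and a fibrous sheath sum of 0.57. On that scale, dEXO over EXO in late spermatocytes gave a fibrous sheath sum of -0.11. On that scale, dEXO over EXO in round spermatids gave a dynein sum of 0.34, a tektin sum of -0.0073, a fibrous sheath sum of -0.056 and Tekt2 -0.0094. On that scale, round spermatids over late spermatocytes in EXO gave a dynein sum of -1.29, a tektin sum of 0.88 and a fibrous sheath sum of 0.54. On that scale, round spermatids over late spermatocytes in dEXO gave a dynein sum of -1.02, a tektin sum of 1.18 and a fibrous sheath sum of 0.68. With the members kept among the clustering genes, dEXO over PBS in late spermatocytes gave a dynein sum of -0.32. In that clustering, dEXO over EXO in late spermatocytes gave 1 member higher, a dynein sum of 0.25 and a fibrous sheath sum of -0.11. In that clustering, round spermatids over late spermatocytes in EXO gave a dynein sum of -1.50 and a tektin sum of 0.66. In that clustering, round spermatids over late spermatocytes in dEXO gave a dynein sum of -1.33 and a tektin sum of 0.90. Within 1 germ cluster, dEXO over EXO in late spermatocytes gave a dynein sum of 0.13, a tektin sum of 0.051, a fibrous sheath sum of 0.052, Tekt2 0.24, Ropn1l 0.058 and Cfap69 -0.012. In clusters 10 and 8, dEXO over EXO in round spermatids gave a dynein sum of 0.55, a tektin sum of 0.10 and Odf2 -0.016.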
